A study of Mus musculus with 3 samples.

Results

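The genes described here are 8 enzymes of cholesterol synthesis, Hmgcs1, Mvd, Idi1, Fdps, Fdft1, Sqle, Lss and Cyp51, named as a list and looked up by symbol in the count matrix. All 8 were found among its 32285 genes. The list holds no uptake gene, so genes of cholesterol uptake and intracellular transport are given from a separate list. Levels were compared across B cell states and between LDHA-sufficient and LDHA-deficient mice, LDHA being a subunit of lactate dehydrogenase, which converts pyruvate to lactate.

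Spleen B cells of 6 mice, 3 LDHA-sufficient (hashtags labelled WT) and 3 LDHA-deficient (hashtags labelled KO), were sorted as viable B cells and on GL7, a surface marker of germinal centre (GC) B cells. All cells ran in 1 lane of a droplet 5′ RNA kit, with each mouse marked by an antibody hashtag against CD45 and MHC class I. How the deficiency was made, and the strain, age, sex and immunization of the mice, do not stand in the labels used here. The labels call the cells of the RNA library pre-GC and GC B cells but those of the hashtag library hematopoietic stem and progenitor cells. The cells carried B lineage genes: in the 9 clusters other than the myeloid one, on average 53.7% to 96.2% of cells had a UMI of each of 6 such genes, with the lowest value in plasma cells. The myeloid cluster stood at 63.9%, so this measure alone does not set B cells apart.

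Animal cells build cholesterol from acetyl-CoA through the mevalonate pathway, whose intermediates also feed the prenylation of proteins and the synthesis of ubiquinone. When membrane sterol is low, the transcription factor SREBP2 raises most genes of the pathway together with genes of cholesterol uptake, and when it is plentiful, oxysterols hold SREBP2 back and LXR factors raise the genes of cholesterol export. Proliferating lymphocytes need sterol for new membrane, and GC B cells are among the most rapidly dividing cells of the spleen.

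Of the 8 enzymes, Hmgcs1 makes HMG-CoA, Mvd makes isopentenyl diphosphate, and Idi1 interconverts it with its isomer. Fdps then makes farnesyl diphosphate, the branch point towards isoprenoids other than sterols. Fdft1 commits farnesyl diphosphate to squalene, Sqle oxidises squalene, Lss closes the rings to give lanosterol, and Cyp51 removes a methyl group from lanosterol. In GRCm38 (mm10) with GENCODE annotation, Hmgcs1 (ENSMUSG00000093930) lies at chr13:119690379-119708260 and Idi1 (ENSMUSG00000058258) on the same chromosome at chr13:8885501-8892451, both on the plus strand. Fdps (ENSMUSG00000059743) is at chr3:89093588-89101959, Cyp51 (ENSMUSG00000001467) at chr5:4081145-4104746, Mvd (ENSMUSG00000006517) at chr8:122433601-122443422 and Fdft1 (ENSMUSG00000021273) at chr14:63145150-63179578, all on the minus strand. Lss (ENSMUSG00000033105) is at chr10:76531588-76557138 and Sqle (ENSMUSG00000022351) at chr15:59315077-59331192, on the plus strand. UMIs counted over a whole gene body cannot be assigned to an exon here.

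RefSeq promoter sequences (build GRCm38.p6) were at hand for 5 of the 8 genes, Hmgcs1, Mvd, Idi1, Lss and Cyp51. The letters TCACNCCAC, the core of a sterol regulatory element bound by SREBP, were looked for on both strands in the 250 bases before each start. They stood in Hmgcs1 only, 137 bases before the start, and in 1.05% of all 32851 promoters. CCAAT, bound by NF-Y, stood in all 5 promoters, 3 times in Hmgcs1, and in 33.8% of all promoters. The GC box GGGCGG also stood in all 5, against 32.7% of all promoters, and the E box CACGTG in none of the 5, against 6.02%. Matches on either strand were counted, none of the printed ones overlapped, and a match is a run of letters, not a shown binding site. The promoter of Hmgcs1 is printed for its match to the sterol regulatory element, and that of Cyp51 because it was the 1 gene called in GC B-like cells of both genotypes. Each is written 5′ to 3′ on the gene's strand up to the first base of the gene in RefSeq or GENCODE, with every match to these motifs in capitals. The Cyp51 stretch holds 201 of the 250 bases searched, since the gene starts earlier in GENCODE, and its CCAAT, 29 bases before the RefSeq start, lies in the part not printed.
Hmgcs1, chr13:119690101-119690350, plus strand: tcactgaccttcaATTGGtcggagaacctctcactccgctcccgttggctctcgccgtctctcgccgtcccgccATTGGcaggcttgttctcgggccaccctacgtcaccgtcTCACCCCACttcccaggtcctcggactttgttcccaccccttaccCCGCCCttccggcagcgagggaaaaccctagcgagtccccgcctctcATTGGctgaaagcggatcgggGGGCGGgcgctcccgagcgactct
Cyp51, chr5:4104747-4104947, minus strand: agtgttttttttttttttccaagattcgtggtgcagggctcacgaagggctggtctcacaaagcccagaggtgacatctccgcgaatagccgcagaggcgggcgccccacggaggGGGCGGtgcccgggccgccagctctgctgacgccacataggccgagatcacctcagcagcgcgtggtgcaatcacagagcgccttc

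After hashtag calls and cell filters 1849 cells remained, 239 to 367 per mouse, with 1133366 to 2263254 UMIs (single RNA molecules counted once) per mouse. Of the 2836 deposited barcodes, 2831 were also in the hashtag library. Cells were clustered without the sterol genes and named by markers: 173 GC B-like, 174 activated B-like, 398 follicular B-like, 200 marginal zone B-like, 153 interferon-responding B-like and 18 plasma cell-like cells. LDHA-sufficient mouse 3 stood apart from the other 2 of its group, with 16 GC B-like cells against 61 and 75. The 2 unnamed clusters held 660 cells, and 73 myeloid and dendritic cells were left out. Ldha was lower in each LDHA-deficient mouse than in each LDHA-sufficient mouse over all B cells, at 47.4, 47.4 and 71.8 against 238, 240 and 158 CPM (UMIs of the gene per 1000000 UMIs of the summed cells).

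The 8 genes together were most abundant in GC B-like cells in LDHA-sufficient mice. Their summed level was 446, 512 and 413 CPM in GC B-like cells of the 3 LDHA-sufficient mice, 457 ± 50.3 (mean ± SD, n = 3). In follicular B-like cells, the resting recirculating B cells, it was 215, 164 and 120 CPM, 166 ± 47.6 (SD, n = 3). Marginal zone B-like cells stood at 111, 171 and 60.5 CPM and interferon-responding B-like cells at 134, 58.2 and 76.7 CPM. Activated B-like cells, which carry Myc, Cd69, Cd83 and Nr4a1, ranged widely at 282, 254 and 102 CPM. Every LDHA-sufficient GC value lay above every value of the other 4 named states in those mice, while the ranges of the other 4 states overlapped one another. The unnamed clusters of 539 and 121 cells averaged 165 ± 46.7 and 172 ± 75.7 CPM (SD, n = 3), near the follicular level.

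**Figure D1:**
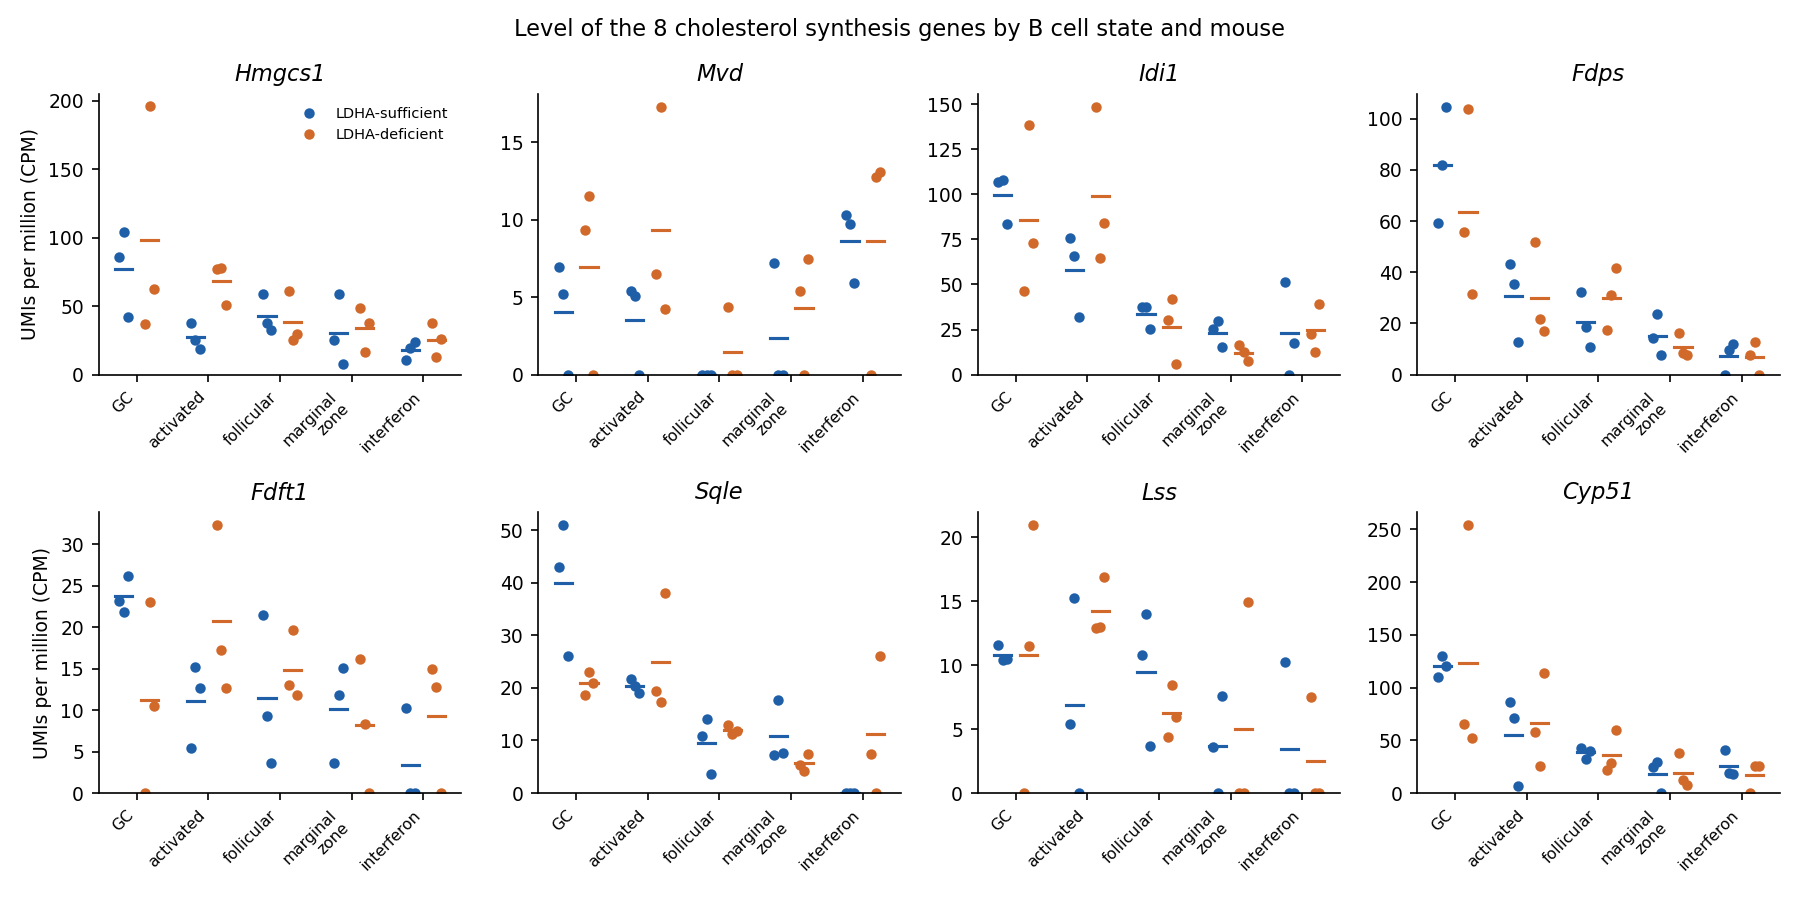
Level of each of the 8 genes in CPM (linear axis from 0) in 5 B cell states, with 1 point per mouse and a bar at the mean of 3 mice. In LDHA-sufficient mice (blue) the GC means of Idi1, Fdps, Sqle and Cyp51 are above those of the other states, and Mvd reaches at most 17.3 CPM.

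In depth, GC B-like cells had a median of 10252 UMIs per cell against 3210 in follicular B-like cells, which CPM takes into account. A GC B-like cell of LDHA-sufficient mice held on average 6.30 UMIs of the 8 genes and a follicular B-like cell 0.581, a contrast made of both a higher share and larger totals.

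Cyp51, Fdps and Idi1 rose in GC B-like against follicular B-like cells of the LDHA-sufficient mice. Cyp51 was at 110, 130 and 120 CPM in GC and at 43, 32.7 and 40.1 CPM in follicular cells, with no overlap. Its log2 difference in edgeR's quasi-likelihood test with mouse as a block was 1.58 (SE 0.30, adjusted p = 0.000123). Fdps was at 59.1, 82.1 and 105 CPM in GC and at 32.3, 18.7 and 10.9 CPM in follicular cells, again apart, a log2 difference of 1.95 (SE 0.43, adjusted p = 0.000526 by edgeR). Idi1, at 107, 108 and 83.7 against 37.7, 37.4 and 25.5 CPM, gave 1.51 (SE 0.33, adjusted p = 0.000486 by edgeR). Hmgcs1, the first of these steps, was at 85.8, 104 and 41.8 against 59.2, 37.4 and 32.8 CPM, higher in GC cells within each of the 3 mice though the ranges overlapped, and did not pass at a log2 difference of 0.79 (SE 0.34, adjusted p = 0.0574 by edgeR). So 3 of the 4 genes that passed the filter on low counts were called, where 45.3% of all 4466 genes tested were called. The other 4, Mvd, Fdft1, Sqle and Lss, did not pass that filter.

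With the B cells of the same mice that were neither GC B-like nor plasma cell-like (non-GC B cells) as the reference, a comparison added after the data were seen, 7 of the 8 genes could be tested and 6 rose. The background was 33.1% of 8517 genes called. Sqle, the squalene oxidising step, was at 42.9, 50.9 and 26.2 CPM in GC against 8.11, 11 and 12.5 CPM in non-GC B cells, a log2 difference of 1.88 (SE 0.33, adjusted p = 0.000205 by edgeR). Fdft1 was at 23.2, 21.8 and 26.2 against 8.11, 11.9 and 11.6 CPM, or 1.02 on the log2 scale (SE 0.38, adjusted p = 0.0433 by edgeR). Neither gene overlapped between the cell groups. Cyp51 (1.66), Fdps (1.70), Idi1 (1.39) and Hmgcs1 (0.95) were the other 4 log2 differences called by edgeR. Lss, which closes the sterol rings, was at 11.6, 10.4 and 10.5 against 5.41, 6.4 and 1.78 CPM but did not pass (log2 difference 0.94, SE 0.58, adjusted p = 0.230 by edgeR). Mvd did not pass the filter, with 0 to 6 UMIs per mouse in GC B-like cells. DESeq2 called 4 of the 7, losing Hmgcs1 (adjusted p = 0.0808) and Fdft1 (adjusted p = 0.285). The median log2 difference of the 7 was 1.39, against -0.038 over all genes tested. Sqle, Fdft1 and Lss passed the filter only with their GC values. The count called and this median depend in part on that.

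**Figure D2:**
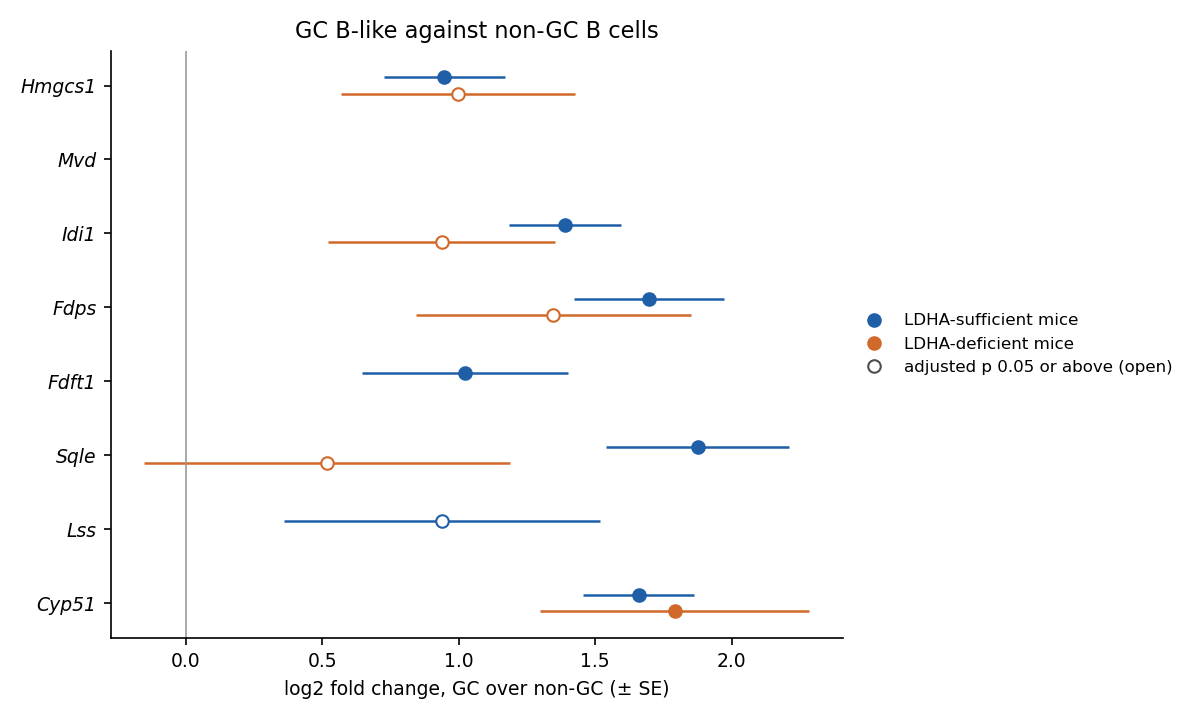
Log2 fold change of each gene in GC B-like over non-GC B cells with its standard error, for LDHA-sufficient (blue) and for LDHA-deficient mice (orange), 3 each. Filled points passed an adjusted p of 0.05 in edgeR, 6 of the blue and 1 of the orange, Cyp51. Genes without a point did not pass the filter on low counts.

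GC B-like cells fell in 2 clusters, and the 8 genes were high in both. The first, of 110 cells with the mitotic genes Top2a, Mki67 and Cenpe among its leading genes, had 431, 561 and 365 CPM of the 8 genes in LDHA-sufficient mice. The second, of 63 cells with S1pr2 and Mef2b among its leading genes, had 486, 408 and 629 CPM. Their ranges overlapped. The summed level of 15 genes of the G2 and M phases was 7541, 6711 and 7279.5 CPM in the first. In the second it was 757, 1208 and 1086 CPM, lower but still above the non-GC B cells of each mouse. Summed S phase genes were at 4502.1, 5019.4 and 2496.9 CPM in the first and 2350.2, 2369.7 and 3228.85 CPM in the second. In non-GC B cells of these mice they were at 844.5, 779.5 and 738.1 CPM, so both GC clusters were higher in proliferation genes. Idi1 in the second cluster was at 132, 77.7 and 257 CPM, the last value from 9 UMIs of 5 cells, and at 96.8, 122 and 44.8 CPM in the first. Proliferation genes also moved with the GC contrast as a whole, with 15 of 15 S phase and 15 of 15 G2 and M phase genes higher in GC than in non-GC B cells of LDHA-sufficient mice. Of all 8517 genes tested there, 1434 were called higher and 1383 lower. Proliferation genes were not left out of the clustering, so these counts are not independent of how the cells were grouped. The part of proliferation genes in the difference of the 8 genes was not tested. The summed T and NK cell markers were at 33.6, 374 and 78.5 CPM in GC B-like cells of the 3 LDHA-sufficient mice, against 5.41, 2.74 and 6.23 CPM in their non-GC B cells. All 10 markers of that list had a UMI there, and Gzma gave 257 of the 404. Their part in the difference was not tested. Without the first or without the second of these mice, 4 of the 8 genes were called in this contrast by edgeR. Hmgcs1 was then at an adjusted p of 0.115 and 0.136 and Fdft1 at 0.264 and 0.139.

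In LDHA-deficient mice, GC B-like cells were few, 9, 7 and 5 cells per mouse, and the level of the 8 genes was spread widely. The summed level was 232, 761 and 272 CPM from 25, 66 and 26 UMIs, with exact 95% Poisson intervals of 150 to 343, 589 to 968 and 178 to 399 CPM. Such intervals cover counting error only. The second mouse stood above all 3 LDHA-sufficient mice and the other 2 stood below them. Cyp51 was at 65.1, 254 and 52.3 CPM and Hmgcs1 at 37.2, 196 and 62.8 CPM, with the second mouse highest for both. Ldha, at 55.8, 127 and 20.9 CPM from 6, 11 and 2 UMIs, was also highest in that mouse. In GC B-like cells of LDHA-sufficient mice Ldha was at 376, 320 and 235 CPM. Against non-GC B cells of the same mice, Cyp51 rose by 1.79 on the log2 scale (SE 0.49, adjusted p = 0.0148 by edgeR). Cyp51 was the 1 gene called of 5 tested, with a background of 15.1% of 6958 genes. DESeq2 called 0 of the 5, with Cyp51 at an adjusted p of 0.0760, and with the highest doublet scores removed edgeR gave 0.0820. It did not pass without LDHA-deficient mouse 2, where the log2 difference was 0.60 (adjusted p = 0.608 by edgeR), nor without LDHA-deficient mouse 1 (2.02, adjusted p = 0.138 by edgeR). Fdps (1.35), Hmgcs1 (1.00), Idi1 (0.94) and Sqle (0.52) gave positive log2 differences that did not pass. Whether the GC contrast differed between the genotypes was not tested.

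Within GC B-like cells, none of the 4 genes tested differed between genotypes by edgeR, and none had an unadjusted p under 0.05. DESeq2 also called 0 of them. The background was 0% of 2791 genes called by edgeR, with 209 at an unadjusted p under 0.05 and 4 called by DESeq2. Ldha itself, at a log2 difference of -2.16 (SE 0.38), was not called here (adjusted p = 0.0942 by edgeR). Hmgcs1 gave a log2 difference of 0.23 (SE 0.49), Cyp51 0.082 (SE 0.43), Idi1 -0.21 (SE 0.35) and Fdps -0.19 (SE 0.43), LDHA-deficient over LDHA-sufficient. Each value of these 4 genes was smaller than its SE, so these sums show neither a change of them nor its lack. The 2 GC clusters also held different parts of the class, 92 and 60 cells in LDHA-sufficient against 18 and 3 cells in LDHA-deficient mice.

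**Figure D3:**
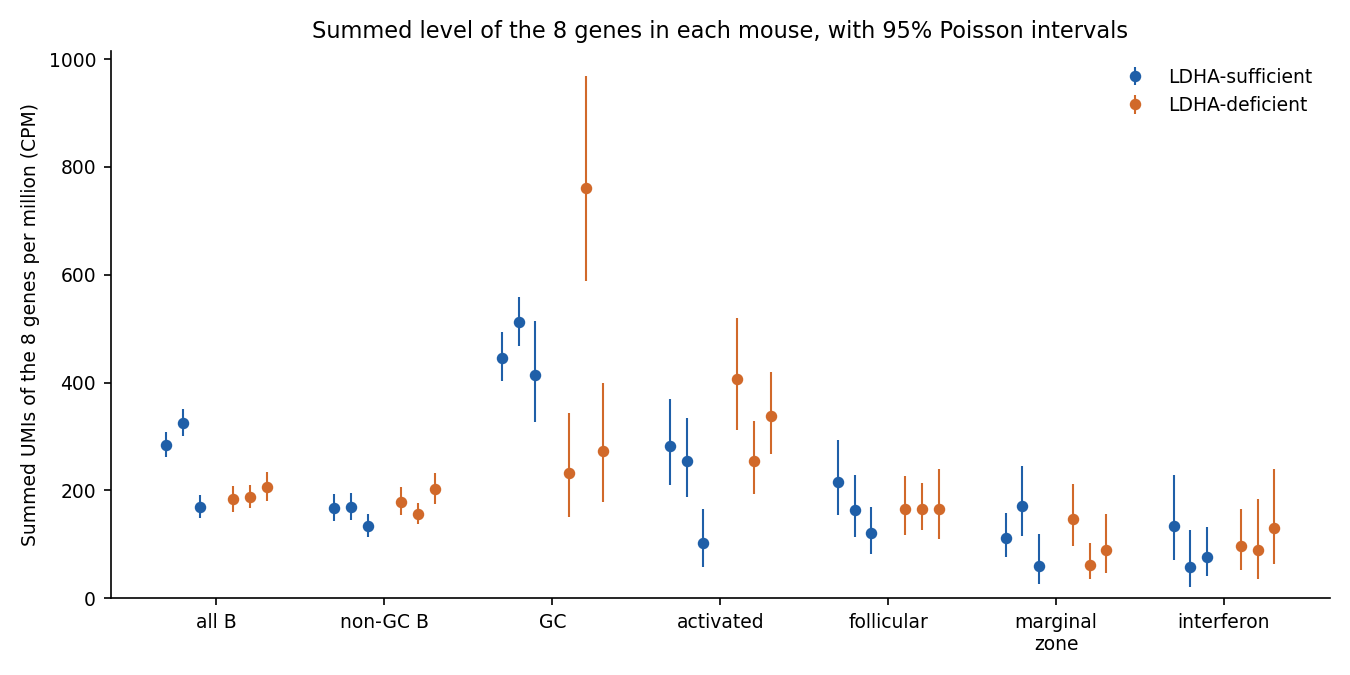
Summed level of the 8 genes in CPM (linear axis from 0) in all B cells, non-GC B cells and 5 states, with 1 point per mouse and its exact 95% Poisson interval. The 3 LDHA-deficient GC points lie at 232, 761 and 272 CPM with wide intervals, and the LDHA-sufficient GC points between 413 and 512 CPM.

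Over all B cells, none of 7 genes tested passed between genotypes by edgeR, while 3 had an unadjusted p under 0.05 and DESeq2 called 0. Of all 9188 genes tested, 1.09% were called and 1557 had an unadjusted p under 0.05. Fdps was at 42.3, 49.6 and 29.5 CPM in LDHA-sufficient and at 24.5, 28.5 and 23.1 CPM in LDHA-deficient mice, every LDHA-deficient value being lower. Its log2 difference was -0.66 (SE 0.21, adjusted p = 0.132 by edgeR). Among genes with at least 10 UMIs, 18.6% did not overlap between the genotypes in either direction, and Fdps was the 1 of the 8 that did not. Cyp51 was at 67.6, 78.2 and 39.6 against 30.3, 33.8 and 48.8 CPM (log2 difference -0.73, SE 0.23, adjusted p = 0.150 by edgeR) and the groups overlapped. Sqle, at 23, 29.1 and 13.7 against 11.4, 13.6 and 16.9 CPM, gave -0.67 (SE 0.28, adjusted p = 0.236 by edgeR). Idi1 gave -0.41 (SE 0.20), Hmgcs1 -0.20 (SE 0.22), Fdft1 -0.046 (SE 0.26) and Lss 0.15 (SE 0.45). Mvd, with 3 to 13 UMIs per mouse, was not tested. Without LDHA-sufficient mouse 3, Cyp51 (-0.94), Fdps (-0.80), Sqle (-0.86) and Idi1 (-0.61) were called by edgeR, and 1469 of 9563 genes were.

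GC B-like cells made up 19.6%, 23.3% and 5.73% of the B cells of the LDHA-sufficient mice and 3.36%, 1.95% and 2.11% of those of the LDHA-deficient mice. They held 63.6%, 72.2% and 33.6% of the UMIs of the 8 genes in LDHA-sufficient mice, and 11.2%, 20.9% and 11.2% in LDHA-deficient mice. Of all UMIs of B cells they held 40.5%, 45.9% and 13.8% in LDHA-sufficient and 8.80%, 5.14% and 8.47% in LDHA-deficient mice. Sums over all B cells thus mix GC B-like and other B cells at different shares.

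**Figure D4:**
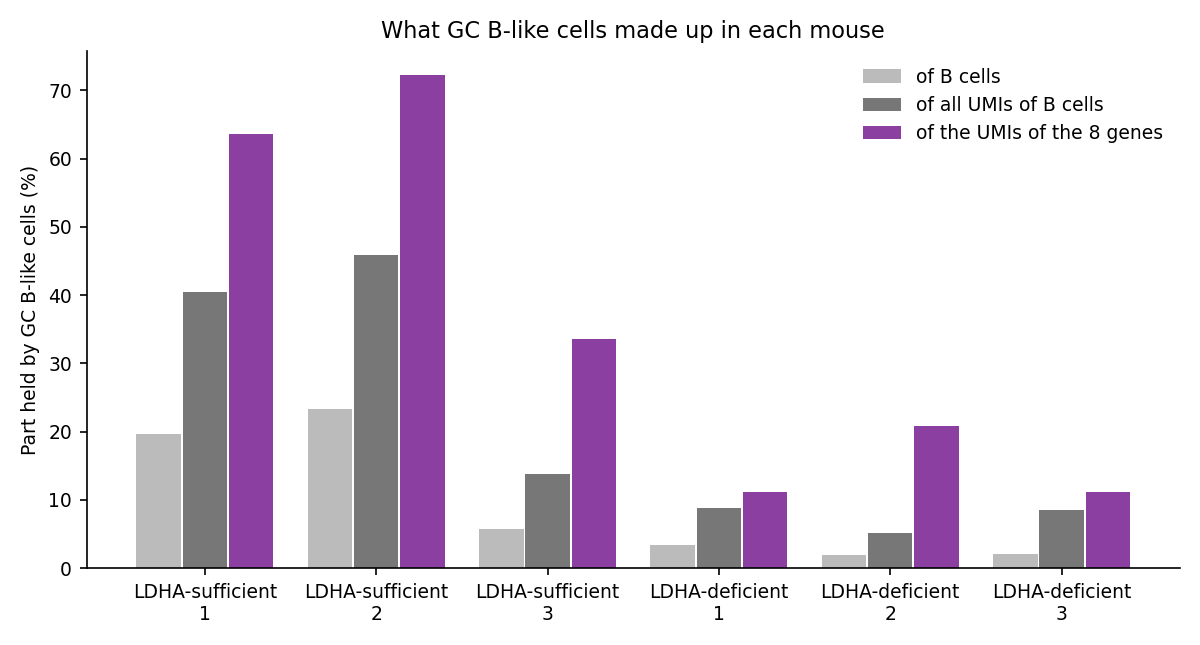
Percent held by GC B-like cells in each of the 6 mice, of B cells (light grey), of all UMIs of B cells (dark grey) and of the UMIs of the 8 genes (purple), on a linear axis from 0. The purple bars reach 72.2% in an LDHA-sufficient and at most 20.9% in an LDHA-deficient mouse.

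In non-GC B cells the genotypes lay close together. The summed level was 167, 169 and 133 CPM in LDHA-sufficient and 178, 156 and 202 CPM in LDHA-deficient mice, 156 ± 20.0 and 179 ± 22.8 (SD, n = 3 each), and the groups overlapped. None of the 6 genes tested passed by edgeR or DESeq2 and none had an unadjusted p under 0.05, with a background of 0.071% of 8455 genes called. The log2 differences were 0.47 for Fdft1 (SE 0.33), 0.34 for Sqle (SE 0.34), 0.20 for Idi1 (SE 0.19), 0.17 for Hmgcs1 (SE 0.19), 0.10 for Fdps (SE 0.25) and -0.13 for Cyp51 (SE 0.23). These 6 genes all had negative values over all B cells, and Cyp51 alone had one outside the GC. None of these values was called in the main analysis. The part of the GC share in them was not tested. Lss and Mvd did not pass the filter. In follicular B-like cells alone none of the 8 could be tested between genotypes, where 0.127% of 3924 genes were called, and the summed level was 165, 166 and 166 CPM in LDHA-deficient mice.

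**Figure D5:**
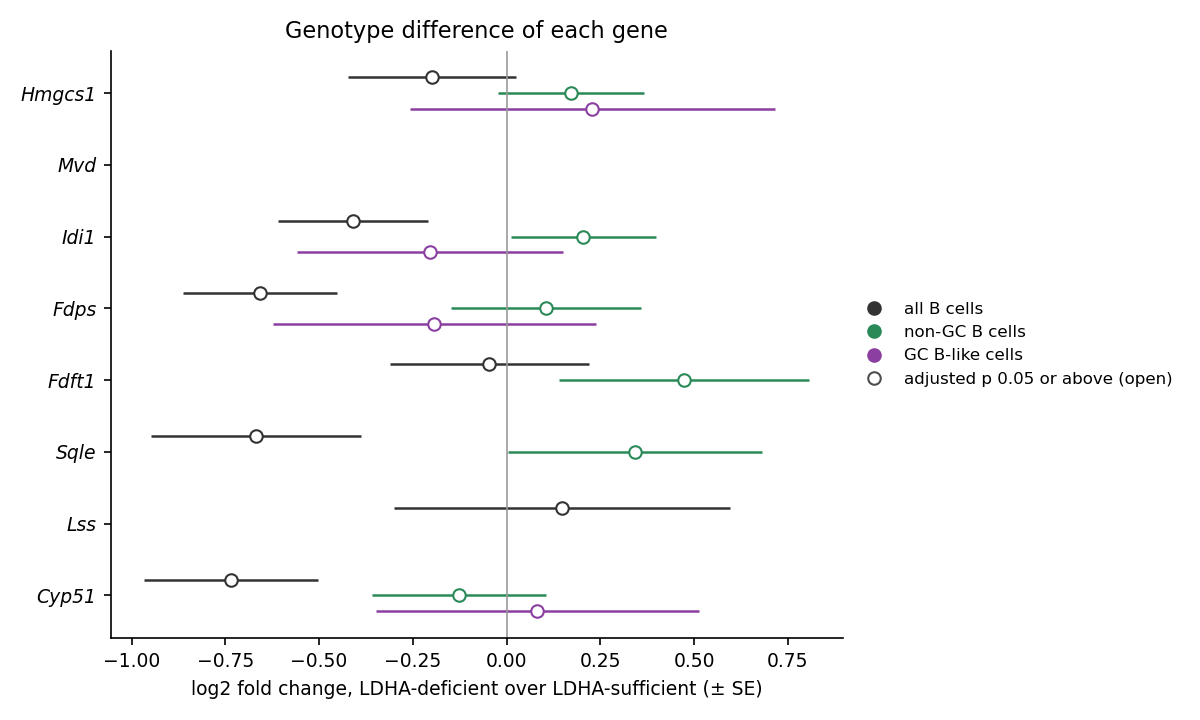
Log2 fold change of each gene, LDHA-deficient over LDHA-sufficient with 3 mice each, with its standard error, in all B cells (black), non-GC B cells (green) and GC B-like cells (purple). All points are open because none passed an adjusted p of 0.05. The all-B values of Cyp51, Fdps and Sqle lie near -0.7 while their non-GC values lie between -0.13 and 0.34.

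In activated B-like cells the summed level was 282, 254 and 102 CPM in LDHA-sufficient and 407, 255 and 337 CPM in LDHA-deficient mice, and the groups overlapped. Hmgcs1 was at 38, 25.4 and 19 CPM in LDHA-sufficient and at 77.5, 77.7 and 50.6 CPM in LDHA-deficient mice, from 7, 5 and 3 against 12, 18 and 12 UMIs. All LDHA-deficient values were higher, yet the gene did not pass the filter on low counts in this comparison. Hmgcs1 was the 1 of the 7 members with at least 10 UMIs whose genotypes did not overlap, and 10.4% of such genes did not. Idi1 was at 75.9, 66 and 31.7 against 149, 64.8 and 84.4 CPM (log2 difference 0.68, SE 0.36, adjusted p = 0.956 by edgeR). Cyp51 was at 86.8, 71.1 and 6.35 against 58.1, 25.9 and 114 CPM (0.23, SE 0.69). Neither passed, none had an unadjusted p under 0.05 and DESeq2 called 0, where 0.0302% of 3314 genes were called.

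Against follicular B-like cells of the same mice, Idi1 rose in activated B-like cells of the LDHA-deficient mice, and Hmgcs1 passed as well but in few of the alternatives. Idi1 was at 30.4, 42.2 and 5.94 CPM in their follicular cells, a log2 difference of 1.80 (SE 0.38, adjusted p = 1.99e-05 by edgeR). Hmgcs1 was at 60.8, 25.3 and 29.7 CPM in follicular cells, a log2 difference of 1.01 (SE 0.38, adjusted p = 0.0248 by edgeR). Cyp51 did not pass (0.83, SE 0.40, adjusted p = 0.0882 by edgeR). So 2 of 3 genes tested were called, where 35.7% of 4138 genes were. Idi1 and Hmgcs1 passed the filter on low counts only with their high activated values. This share is therefore not a result about the 8 genes. Idi1 was called in 11 of 12 alternatives, all but the one without LDHA-deficient mouse 1 (adjusted p = 0.0872 by edgeR). Hmgcs1 was called in 4 of 12, and not by DESeq2 (adjusted p = 0.430), nor by edgeR without the filter (0.0782), with the stricter cell filter (0.316), at the lower clustering resolution (0.330), with the sterol genes kept in clustering (0.0743) or without LDHA-deficient mouse 1, 2 or 3 (0.0628, 0.428 and 0.0598). In LDHA-sufficient mice none of the 8 passed the filter in this contrast, where 36% of 3424 genes were called. In them Hmgcs1 had 7, 5 and 3 UMIs in activated and 11, 8 and 9 UMIs in follicular cells, with the CPM lower in activated cells in each mouse and the 95% Poisson intervals of the states overlapping.

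The difference of this contrast between the genotypes was tested for 3 of the 8 genes. Hmgcs1 gave 1.61 on the log2 scale (SE 0.64, unadjusted p = 0.0143, adjusted p = 0.891 by edgeR), Idi1 1.01 (SE 0.60) and Cyp51 0.37 (SE 0.62). None passed by edgeR, 1 had an unadjusted p under 0.05 and DESeq2 called 0, with 0.0446% of 4481 genes called and 241 at an unadjusted p under 0.05. Red cell transcripts such as globins were at 6887, 10.2 and 27900.5 CPM in activated B-like cells of LDHA-sufficient mice and at 32.3, 17.3 and 692 CPM in LDHA-deficient mice, with all 6 listed genes seen in both groups. Summed S phase genes were at 2429, 1844 and 2221 against 1479, 885 and 2050 CPM. The part of either in the values of Hmgcs1 and Idi1 was not tested. In marginal zone against follicular B-like cells of LDHA-sufficient mice none of the 8 passed the filter either, where 18.6% of 3427 genes were called.

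The 8 genes varied partly together over 25 sums of a mouse and named state with at least 20 cells, as a description, since sums of 1 mouse share animal and lane. Only 2 of the sums were of GC B-like cells, both of LDHA-sufficient mice, so the GC end of each correlation rests on these 2. On the log2(CPM + 5) scale the highest pairwise correlation was 0.75, between Fdps and Sqle, followed by Idi1 and Sqle at 0.71. Correlations of Mvd with the others lay between -0.16 and 0.28, at 6 and 5 Mvd UMIs in the 2 GC sums. The summed S phase list followed the summed 8 genes at r = 0.74 and the G2 and M phase list at 0.68. The other synthesis enzymes did so at 0.54, fatty acid synthesis genes at -0.052 and Ldha at 0.28. Among 6240 genes outside the lists, the most alike included Srrt, Nap1l1, Nucks1, Srsf1, Marcksl1, Hnrnpm, Chaf1a, Cdca7 and Tubb5, with r from 0.80 to 0.84. Marcksl1, for instance, averaged 175 CPM in the 2 GC sums, 140 CPM in the 6 activated and 39.3 CPM in the 6 follicular sums.

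Some of the other enzymes of cholesterol synthesis also rose in the GC contrasts. In GC against follicular B-like cells of LDHA-sufficient mice, 2 of the 11 such enzymes reported here were tested and both rose: Pmvk, which makes mevalonate diphosphate, by 1.91 and Lbr by 0.88 on the log2 scale in edgeR. Of all 4466 genes tested there, 1081 rose and 941 fell. Against non-GC B cells 4 of 9 tested rose, Acat2 by 1.77, Msmo1 by 1.51, Lbr by 1.05 and Pmvk by 1.02, and 5 did not pass, where 1434 of all 8517 genes rose and 1383 fell. Between genotypes none of 10 tested over all B cells passed, with 9 of 10 negative and a median log2 difference of -0.30 against 0.019 over all genes. Outside the GC the median of 7 tested was -0.0096, and none passed.

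From the list of uptake and intracellular transport and that of export and storage, most genes called and named here were lower in GC B-like cells. Uptake and intracellular transport stand in the same list. No uptake receptor is among the genes of that list named here, so its values are not a measure of uptake. Of its 9 genes reported here, 2 were tested in GC against follicular B-like cells and both fell. Of all 4466 genes, 941 fell. Mylip, a ubiquitin ligase raised by LXR factors, changed by -3.09 on the log2 scale and Npc2, which moves cholesterol out of lysosomes, by -0.83. Against non-GC B cells of LDHA-sufficient mice, 4 of 5 tested fell, Mylip, Npc1, Npc2 and Lipa, where 1383 of 8517 genes fell, and Stard4 rose by 1.11. Of the export and storage genes, Abca1 (-4.06), Abcg1 (-2.93) and Soat1 (-1.34) fell and Apoe rose by 0.71 in GC against follicular cells. There 45.3% of 4466 genes tested were called, 1081 higher and 941 lower. Srebf2, which encodes SREBP2, rose by 0.69 (SE 0.23, adjusted p = 0.0183 by edgeR) in that contrast. Gpr183, the receptor for oxysterols that guides B cells, fell by 2.60 on the log2 scale.

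Of the neighbouring branches, Ggps1 fell by 1.06 on the log2 scale in GC against follicular cells. Rabggtb rose in activated against follicular cells by 1.96 in LDHA-sufficient mice, where 36% of 3424 genes were called. In LDHA-deficient mice it rose by 1.09, where 35.7% of 4138 genes were called. Among fatty acid synthesis genes, Fasn (1.49) and Scd2 (0.80) rose and Scd1 (-1.51) fell in GC against follicular cells. Of all 4466 genes tested in that contrast, 1081 were called higher and 941 lower. Apoe was the 1 reported sterol pathway gene outside the 8 called between genotypes over all B cells. It fell by 0.95 in LDHA-deficient mice (SE 0.15, adjusted p = 0.00849 by edgeR). Of all 9188 genes tested there, 1.09% were called, 13 higher and 87 lower. Outside the GC Apoe gave -0.36 (SE 0.12, adjusted p = 0.716 by edgeR).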

How the data were processed

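The authors deposited counts (UMIs per gene and barcode, and per hashtag and barcode). Cell Ranger 6.0.0, Seurat 4.2.1 and mm10 are named per the submitters' processing notes, and Cell Ranger 6.0.2 per the file headers. The heavy chain library was not used. HTODemux of Seurat 5.3.0 assigned the hashtags at a positive quantile of 0.99: 1856 barcodes had 1 hashtag, 820 several and 155 none. Hashtag doublets were removed. About 167.2 doublets of cells of 1 mouse are expected among the single-hashtag barcodes (9.01%), and Scrublet called 0, so none was removed in the main analysis. Cells had 500 genes, 1000 UMIs and under 10% mitochondrial UMIs or better. Clustering used Leiden (scanpy 1.11.5, igraph 0.11.9, resolution 0.8, 2000 variable genes, 30 components, 20 neighbours), leaving out 72 sterol and lipid pathway genes, Ldha, antibody, receptor, mitochondrial, ribosomal and sex-linked genes. A cluster was named for the class with most markers raised 1.5 times and seen in 10% of its cells, at least 3. Counts were summed per mouse and class (20 or more cells, 5 for GC) and tested with edgeR 4.0.16 (R 4.3.3; quasi-likelihood, TMM, filterByExpr, Benjamini-Hochberg over all genes tested, threshold 0.05). Contrasts of states had mouse as a block. The edgeR fits, other than that of the difference of contrasts between genotypes, were tested on simulated counts.

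The members and lists were chosen with earlier results of these data known. Named are the 8 genes, the members of the other lists called in a main comparison, and the 10 genes most alike in pattern, with antibody and receptor segments left out and a mean of 20 CPM or more. Some genes of these lists are not reported here; they stayed in clustering and fits and were left out of list counts, medians and sums.

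Alternatives were DESeq2 1.42.0, no filter, no TMM, no antibody genes, leaving out each mouse, ratio hashtag calls (10 UMIs, 3 times the next), removal of the highest Scrublet scores, a stricter cell filter (1000 genes, 2000 UMIs, 5% mitochondrial), resolution 0.4, and clustering with the sterol genes kept. Counting error is set by UMIs per mouse: 224 to 683 UMIs of the 8 genes over all B cells, and 25 to 493 in GC B-like cells. The spread between mice, with 3 per genotype, comes on top and also limits the precision.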

Additional observations from a re-analysis of the deposited data

Results flagged for a closer look

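For Hmgcs1 the sign of the difference between activated and follicular B-like cells was opposite in the 2 genotypes, a difference that was not called. The activated level minus the follicular level was -21.2, -12.0 and -13.8 CPM in LDHA-sufficient mice and 16.7, 52.4 and 20.9 CPM in LDHA-deficient mice. The difference of the contrast between genotypes was 1.61 on the log2 scale and did not pass in edgeR's quasi-likelihood test (adjusted p = 0.891). It ranged from 0.98 to 2.19 over the 15 alternatives and was called in 0 of them. In LDHA-sufficient mice the values rest on 7, 5 and 3 against 11, 8 and 9 UMIs.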

How the results depend on the processing

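For all B cells between genotypes, the number of the 8 genes called was 2 without a filter on low counts and 0 to 4 leaving out 1 mouse. In GC against follicular cells it was 5 without the filter and 3 to 5 leaving out 1 mouse. With and without the replicate block it was 3 and 4, Hmgcs1 being the added call at 0.97. In activated against follicular cells of LDHA-deficient mice it was 1 with DESeq2, no filter, the stricter cell filter and the sterol genes kept in clustering, and 0 to 2 leaving out 1 mouse. In GC against non-GC cells of LDHA-deficient mice it was 0 with DESeq2, 2 without TMM, 3 with ratio hashtag calls, 3 with the stricter cell filter, and 0 to 1 leaving out 1 mouse. The cause was not tested.

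Among 548 alternative values of 41 log2 differences, 21 changed sign, all of uncalled differences. In GC cells between genotypes Cyp51 became -0.071 without the filter, -0.034 without TMM, -0.23 with ratio calls and -0.044 without the highest doublet scores, Hmgcs1 -0.048 with ratio calls, and Idi1 0.31 with the stricter filter. Leaving out 1 mouse at a time, the GC genotype values ranged from -0.95 to 0.43 for Cyp51, -0.70 to 0.68 for Hmgcs1, -0.72 to 0.12 for Idi1 and -0.73 to 0.096 for Fdps. Over all B cells they ranged from -0.42 to 0.057 for Hmgcs1, -0.17 to 0.13 for Fdft1 and -0.32 to 0.41 for Lss. Outside the GC they ranged from -0.082 to 0.25 for Fdps and -0.48 to 0.12 for Cyp51, and in activated cells from -0.48 to 0.68 for Cyp51. Hmgcs1 ranged from -0.073 to 1.53 in GC against non-GC cells of LDHA-deficient mice, and the difference of contrasts for Cyp51 from -0.27 to 0.78. Without TMM the median over all genes moved from -0.031 to -0.27 in marginal zone, -0.032 to -0.14 in activated (LDHA-deficient) and -0.038 to 0.10 in GC against non-GC cells (LDHA-sufficient). Marginal zone against follicular cells was not run with the sterol genes kept, which left too few cells.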
